A study of Mus musculus with 37 samples.

Results

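Interferon-stimulated genes are the genes whose transcription rises when a cell senses interferon, and 37 of them were followed here in the cerebral cortex of a mouse model of Huntington's disease. They were taken as a fixed list of well-known members of the response, chosen by name with earlier results of these data known, and 35 of the 37 were measured, out of 18193 genes that had a probe set carrying their symbol alone. Isg15, the ubiquitin-like modifier of the pathway, was left out because its single probe set is shared with another gene symbol. Ifi44 had no annotated probe set and was not analysed here. The measured members were covered by 54 probe sets, and 12 of them had 2 or more, in which case the brightest one (the highest mean over all arrays) stands for the gene.

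RNA from 37 cortex samples of mice aged 9 weeks on a CBA X C57Bl/6 background was hybridised, one sample per array, to a 3'-biased expression array. WT mice (n = 9) carried neither the transgene nor the Hdac4 null allele. R6/2 mice (n = 9) carried a transgene that encodes the N-terminal fragment of human mutant huntingtin with an expanded glutamine tract, driven by the human huntingtin promoter. Hdac4HET mice (n = 9) had one functional copy of Hdac4, a class IIa histone deacetylase, as a constitutive knock-out heterozygote. Dble::R6/2 mice (n = 10) carried both the transgene and the heterozygous Hdac4 knock-out. The R6/2 line over-expresses a fragment in addition to the endogenous gene and progresses fast, so each genotype is 1 line at 1 age. All values below are expression levels on a log2 scale as deposited, and a difference of 1 on that scale is a doubling.

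Type I interferons bind a receptor pair on the cell surface, and the attached Janus kinases phosphorylate transcription factors such as Stat2, which joins Irf9 and enters the nucleus in a complex that binds the interferon-stimulated response element. The genes switched on there encode proteins that detect foreign RNA and DNA, block translation, cleave RNA, tag proteins with Isg15 or stop viruses from entering the cell, and some of them feed back on the pathway itself. In the brain the programme is best known from viral encephalitis and from glial and vascular cells, and many of its members have a low constitutive level.

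The response element is printed for 4 members because it is the element through which the response is best known to act, and because genes that carry it were found both among the members that rose and among those that did not. RefSeq promoter windows (GRCm38.p6) of 300 bases, from 250 bases before to 50 bases after the annotated start, were found for 28 of the 37 members. Each runs 5′ to 3′ along the strand of the gene, and capitals mark the core of the element, GAAA, any 2 bases and GAAA again, on either strand (TTTC, any 2 bases and TTTC when read on the other). Ifit1 lies at chr19:34640639-34640938 on the plus strand, its neighbour Ifit3 at chr19:34583279-34583578 on the plus strand, Gbp3 at chr3:142559794-142560093 on the plus strand and Oas3 at chr5:120777610-120777909 on the minus strand. The first 3 were among the members that were higher in R6/2 cortex, and Oas3 was not.
Ifit1: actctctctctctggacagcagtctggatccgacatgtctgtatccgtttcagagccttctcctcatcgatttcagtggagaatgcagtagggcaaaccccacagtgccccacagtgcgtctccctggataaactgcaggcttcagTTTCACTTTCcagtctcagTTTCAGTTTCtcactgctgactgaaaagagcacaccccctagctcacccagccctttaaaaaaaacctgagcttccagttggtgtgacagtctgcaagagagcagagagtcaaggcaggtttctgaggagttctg
Ifit3: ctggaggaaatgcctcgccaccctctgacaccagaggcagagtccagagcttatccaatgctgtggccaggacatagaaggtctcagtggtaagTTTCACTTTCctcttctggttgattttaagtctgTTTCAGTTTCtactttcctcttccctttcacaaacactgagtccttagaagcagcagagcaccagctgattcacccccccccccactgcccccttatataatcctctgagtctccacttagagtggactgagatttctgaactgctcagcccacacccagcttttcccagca
Gbp3: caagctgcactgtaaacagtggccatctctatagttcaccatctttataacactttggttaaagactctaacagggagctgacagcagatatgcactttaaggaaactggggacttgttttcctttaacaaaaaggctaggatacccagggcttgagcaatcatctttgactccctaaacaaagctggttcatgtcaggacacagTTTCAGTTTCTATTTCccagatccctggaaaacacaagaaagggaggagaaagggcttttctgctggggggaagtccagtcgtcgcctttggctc
Oas3: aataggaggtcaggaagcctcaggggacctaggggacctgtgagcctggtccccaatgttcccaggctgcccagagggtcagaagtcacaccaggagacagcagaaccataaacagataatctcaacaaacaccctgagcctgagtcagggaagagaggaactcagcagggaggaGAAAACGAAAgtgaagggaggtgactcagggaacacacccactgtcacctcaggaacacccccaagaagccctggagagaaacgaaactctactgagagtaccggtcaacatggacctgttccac
Ifit1 held the core 2 times, beginning at -104 and -85 from the start, and Ifit3 at -156 and -122. Gbp3 had 2 matches that overlap, at -45 and -39, and Oas3 had 1 at -75.

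Among the 28 members with a window, 15 (53.6%) held the core, against 3.44% of 32851 promoters and 3.99% of 27025 genes. The element did not separate members called higher in R6/2 cortex, by the 1.3-fold rule given below, from those not called. It was present in 5 of the 12 called members with a window (41.7%). It was also present in 9 of the 14 measured members with a window that were not called (64.3%). Those not called include members such as Rsad2 and Gbp2, which rose by less than 1.3-fold. Irf7 had a window with no match, which says only that these letters are not in the stretch examined. The gamma-activated sequence TTCNNNGAA was found in 9 members (32.1%) and in 8.3% of all promoters. Matches of the 2 motifs may overlap. A match in this window is a description of the sequence and not a binding site.

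**Figure D1:**
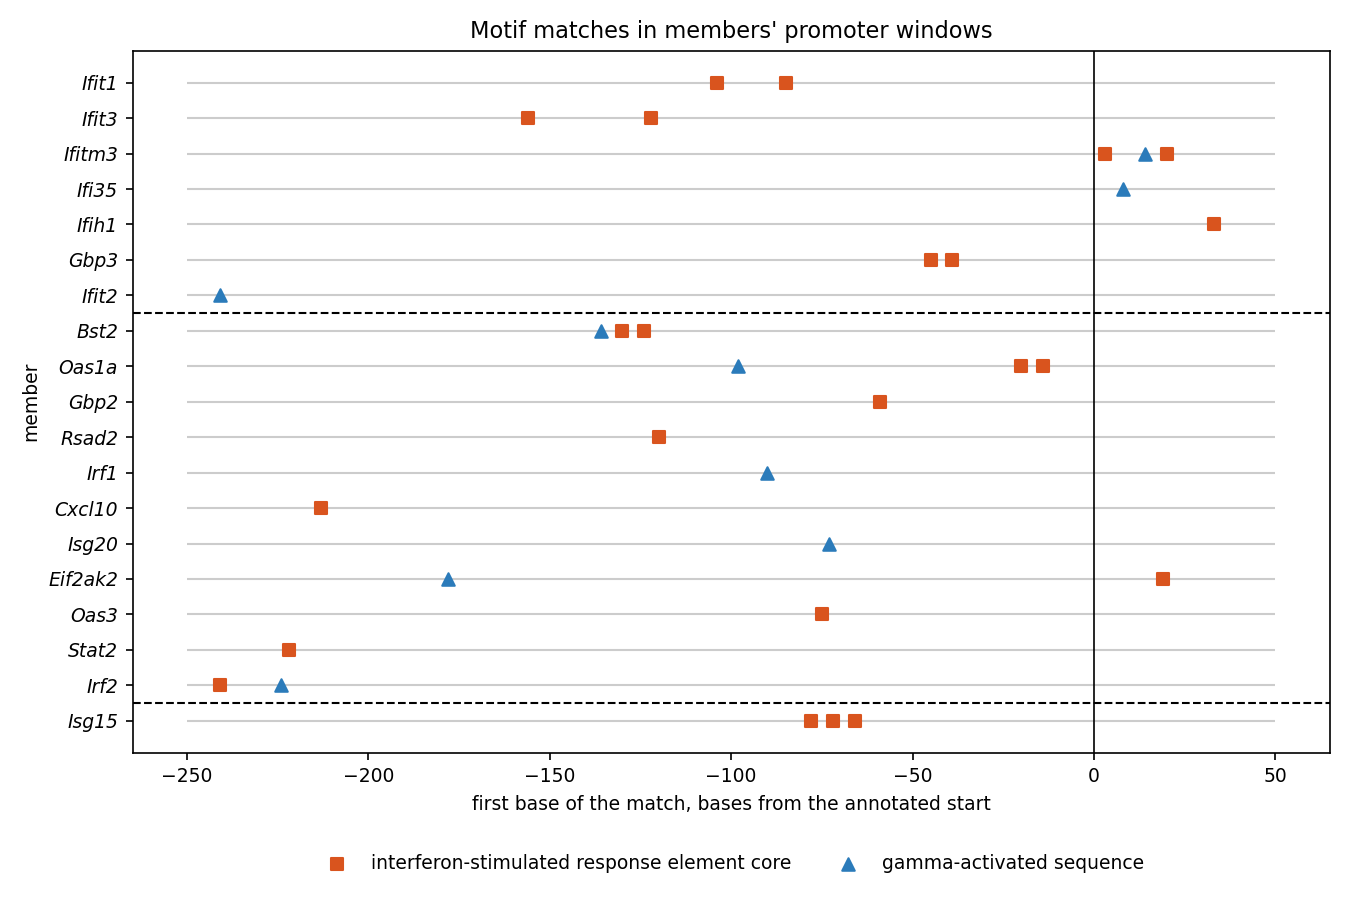
Positions of the interferon-stimulated response element core (squares) and the gamma-activated sequence (triangles) in the 300-base promoter windows of members with at least 1 match, in bases from the annotated start. Members above the upper dashed line were called higher in R6/2 cortex, those between the lines were measured and not called, and Isg15 below the lower line was not measured. The squares lie on both sides of the upper line.

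The arrays were even in level, with medians between 6.16 and 6.21 and correlations between 0.993 and 0.998 within genotypes. Hdac4 itself followed the labels, at 7.70 to 8.02 on every array with the null allele and 8.28 to 8.64 on every array without it. Markers of the olfactory bulb exceeded every WT array on 8 arrays, 7 of them Hdac4HET and 1 Dble::R6/2, and the sex-linked genes did not match the labelled sex on 6 arrays (WT 1, Hdac4HET 3, Dble::R6/2 2), 3 of which also had raised bulb markers. On 2 of these Hdac4HET arrays Xist (11.2 and 11.7) and the Y-linked genes (mean 6.56 and 5.89) were both raised. The markers of neurons and cortex, which include Gad1 of inhibitory neurons, were high on every array, with a mean level between 11.02 and 11.47. Counts of called members are given with and without the arrays with raised bulb markers or against their labelled sex. No level was set aside for being low, and 2 members, Oas3 and Mx1, lay among the lowest 25% of all probe sets.

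The first question was whether the transgene changes these genes. In R6/2 against WT cortex 14 of the 35 members were higher (40%) and 0 were lower, calling a member when its adjusted p was under 0.05 and its change above 1.3-fold (0.38 on the log2 scale), in a limma fit over all 45037 probe sets. The same rule called 3.75% of 18193 genes higher and 3.3% lower. The genes that rose were Ifi27l2a, Oasl2, Ifit1, Usp18, Ifi35, Ifit3, Ifitm3, Xaf1, Ifit2, Irf9, Trim25, Ifih1, Irf7 and Gbp3, with changes from 1.19 for Ifi27l2a down to 0.43 for Gbp3. The median change of the members was 0.26, beside 0.00 over all genes, and 27 of 35 were above 0, beside 50.1% of all genes. At any size 22 members passed as higher (28.1% of all genes did) and 1, Oas3, as lower (18.4% of all genes). The levels of the R6/2 arrays lay wholly above those of the WT arrays for 5 members, Ifit2, Oasl2, Ifih1, Ifi35 and Xaf1, a pattern that 8.36% of all genes showed. None of the arrays with raised bulb markers was WT or R6/2. Leaving them out therefore changes only the shared estimate of the spread here, and the count was again 14. Leaving out the arrays that did not match their labelled sex removes 1 WT and 0 R6/2 arrays, and the count was again 14.

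Dble::R6/2 against Hdac4HET asks the same of the transgene on the background with one Hdac4 copy, with no array in common with the first comparison. Here 11 of 35 members were higher (31.4%, beside 2.6% of all genes) and 0 were lower (4.08% of all genes). All 11 were among the 14 above, and the other 3 were Ifit2, Ifih1 and Irf9. The median change of the members was 0.23, beside 0.04 over all genes, and 32 of 35 were above 0, beside 62.1% of all genes. At any size 20 were higher (28.4% of all genes) and 0 lower. The arrays of the genotypes were fully apart for 4 members, Irf7, Ifit2, Trim25 and Ifi35, as they were for 8.72% of all genes. Without the arrays with raised bulb markers, which leaves 2 Hdac4HET arrays, 7 of the 11 were still called, Irf7, Ifit3, Ifi27l2a and Xaf1 were not, and Ifit2, Gbp2 and Sp100 were added, for 10 in all. Without the arrays that did not match their labelled sex the 11 were called again, with Ifit2 and Gbp2 added.

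**Figure D2:**
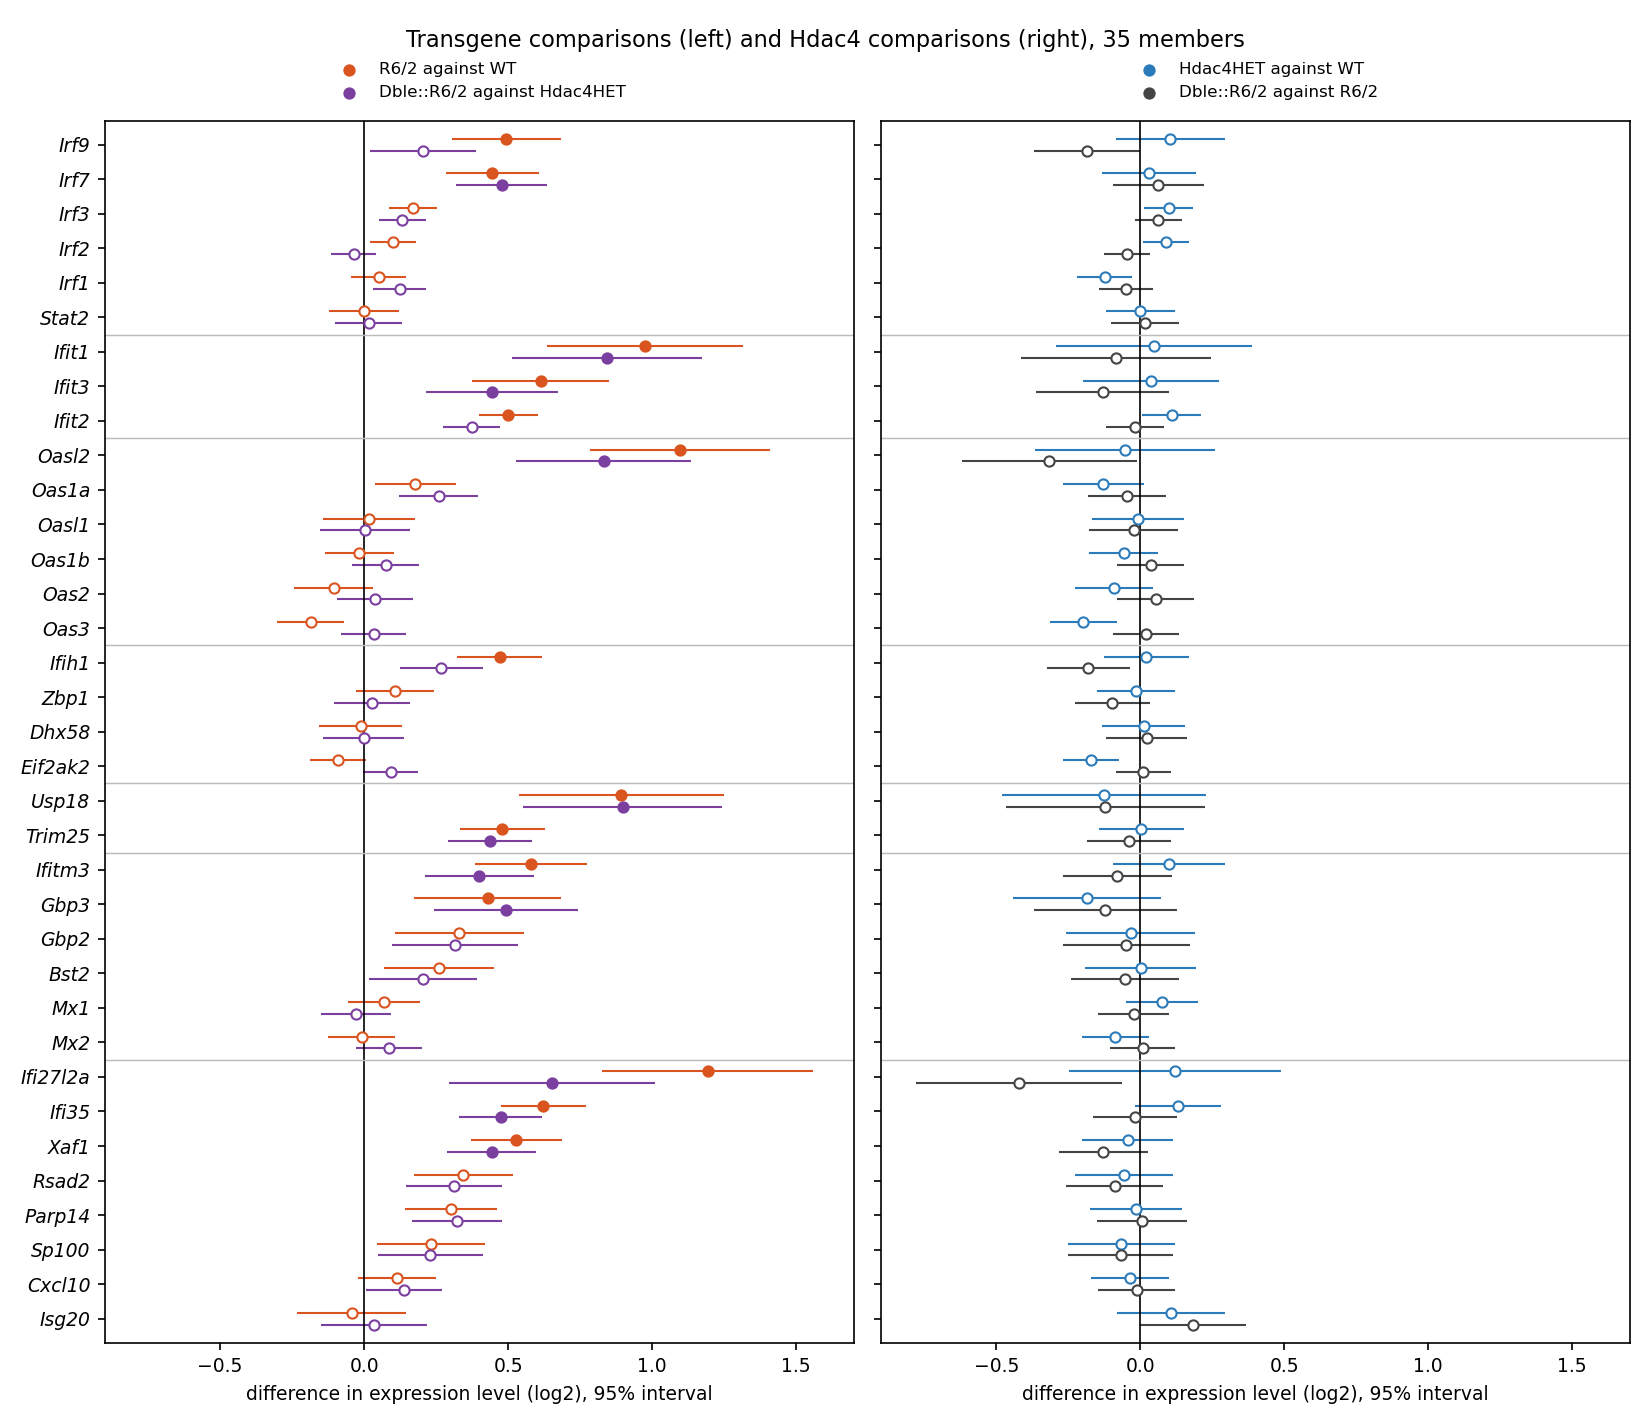
Difference in expression level (log2) of the 35 measured members, with 95% intervals, grouped by role between grey lines. The left panel has R6/2 against WT and Dble::R6/2 against Hdac4HET, the right panel Hdac4HET against WT and Dble::R6/2 against R6/2. Filled points passed the adjusted p and the 1.3-fold threshold: 14 and 11 members on the left, 0 and 0 on the right.

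The IFIT proteins bind viral RNA and the translation initiation machinery, and their genes lie side by side. Ifit1 ranged on the WT arrays from 5.49 through a median of 5.88 to 6.35, and on the R6/2 arrays from 6.21 through 6.73 to 7.61. In Hdac4HET cortex it ran from 5.44 through 5.94 to 6.29, and in Dble::R6/2 cortex from 6.29 through 6.74 to 7.40. The transgenic arrays were the high ones on both backgrounds, with 7 of 9 R6/2 arrays above every WT array and 9 of 10 Dble::R6/2 arrays above every Hdac4HET array. The differences were 0.98 (SE 0.17, adjusted p = 1.01e-05) and 0.84 (SE 0.16, adjusted p = 6.08e-05), or 1.97-fold and 1.8-fold. Ifit2 had the tightest spread of the family. Its WT arrays lay between 7.19 and 7.45 (median 7.39) and its R6/2 arrays between 7.65 and 8.03 (median 7.89), so that the genotypes did not overlap. In Hdac4HET it lay between 7.28 and 7.70 (median 7.51) and in Dble::R6/2 between 7.72 and 8.05 (median 7.83), again without overlap. The change was 0.50 (SE 0.05, adjusted p = 2.43e-10) on the first background and 0.37 (SE 0.05, adjusted p = 8.58e-08) on the second, the latter just under the fold threshold. Ifit3 rose from a WT median of 7.09 (6.79 to 7.38) to an R6/2 median of 7.58 (7.25 to 8.26). Its Hdac4HET median was 7.11 (6.55 to 7.63) and its Dble::R6/2 median 7.58 (7.18 to 7.83). Single arrays overlapped in both comparisons of Ifit3, whose changes were 0.61 (SE 0.12, adjusted p = 4.95e-05) and 0.44 (SE 0.11, adjusted p = 0.00181). The second fell to 0.37 without Hdac4HET replicate 3, the array with the lowest value, and was no longer called. Without the arrays with raised bulb markers it was 0.45, with adjusted p = 0.108, and was not called. Whether the Ifit3 probes tell that gene from its close copy Ifit3b was not tested.

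**Figure D3:**
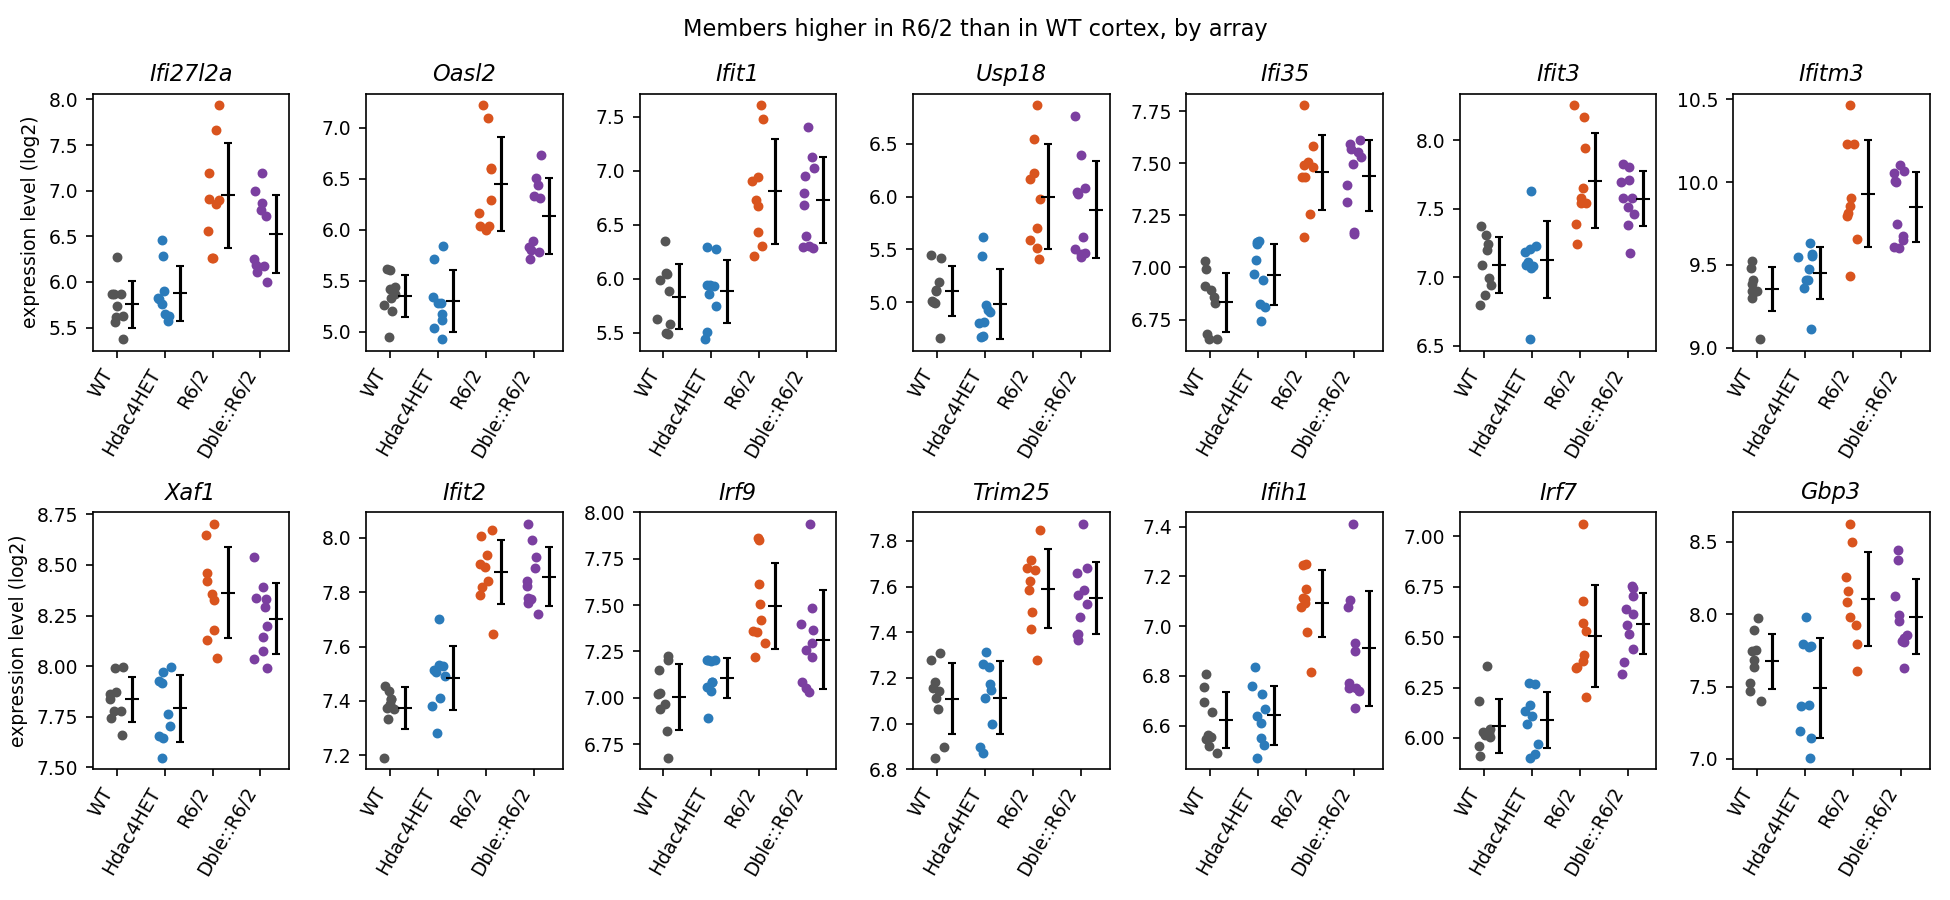
Expression level (log2) on each array (points) of the 14 members that rose in R6/2 cortex, by genotype, with the mean and SD (bars) of 9, 9, 9 and 10 arrays. The axes do not start at 0 and differ between panels. The means of R6/2 and Dble::R6/2 lie above those of WT and Hdac4HET in each panel. Single arrays of R6/2 and WT overlap except for Ifit2, Oasl2, Ifih1, Ifi35 and Xaf1.

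The oligoadenylate synthetases make the second messenger that activates RNase L, which degrades RNA, and they did not move as a family. Oasl2, an OAS-like protein with ubiquitin-like domains, was the only one of 6 to be called. Its WT arrays ran from 4.95 through 5.37 to 5.61 and its R6/2 arrays from 6.00 through 6.29 to 7.22. Hdac4HET ran from 4.93 through 5.28 to 5.84 and Dble::R6/2 from 5.71 through 6.10 to 6.74. Every R6/2 array was above every WT array, while 6 of 10 Dble::R6/2 arrays were above every Hdac4HET array. The changes were 1.10 (SE 0.15, adjusted p = 2.98e-07) and 0.83 (SE 0.15, adjusted p = 2.22e-05). Oas1a was higher by less than the fold threshold, by 0.18 (SE 0.07, adjusted p = 0.0396) and 0.26 (SE 0.07, adjusted p = 0.00209). Oas3 was the member that was lower in R6/2, by -0.19 (SE 0.06, adjusted p = 0.0097), with a median of 4.55 (4.37 to 4.69) in WT and 4.36 (4.10 to 4.52) in R6/2, and it gave 0.03 (SE 0.06, adjusted p = 0.709) on the other background. Oas3 lay among the lowest 25% of probe sets. Oas1b, Oas2 and Oasl1 gave changes between -0.11 and 0.08 over the pair of comparisons, with no adjusted p under 0.05.

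Among the transcription factors of the response, Irf7, which drives the production of type I interferon, was called in both transgene comparisons. Irf7 ran from 5.91 through 6.03 to 6.36 in WT and from 6.21 through 6.41 to 7.06 in R6/2. It ran from 5.90 through 6.11 to 6.27 in Hdac4HET and from 6.32 through 6.59 to 6.75 in Dble::R6/2. The overlap seen with R6/2 was absent with Dble::R6/2, where all 10 arrays were above every Hdac4HET array. The changes were 0.45 (SE 0.08, adjusted p = 2.11e-05) and 0.48 (SE 0.08, adjusted p = 4.72e-06). The first was 0.38 without R6/2 replicate 8 and fell just under the fold threshold, and the second was 0.31 (adjusted p = 0.134) without the arrays with raised bulb markers and was not called. Irf9, the DNA-binding partner of Stat2, had a WT median of 7.02 (6.68 to 7.22) and an R6/2 median of 7.42 (7.22 to 7.86). Its Hdac4HET median was 7.09 (6.89 to 7.21) and its Dble::R6/2 median 7.28 (7.03 to 7.94). Irf9 rose in R6/2 by 0.49 (SE 0.09, adjusted p = 4.21e-05), and gave 0.21 (SE 0.09, adjusted p = 0.0739) in Dble::R6/2. The difference between these changes, -0.29 (SE 0.13), did not pass its own test (adjusted p = 0.218). Irf3, the factor that starts the response before interferon is made, was higher by 0.17 (SE 0.04, adjusted p = 0.00115) and 0.13 (SE 0.04, adjusted p = 0.00818), less than the fold threshold. Its dimmer probe sets gave 0.09, 0.02 and 0.03 in R6/2 and 0.11, 0.08 and -0.12 in Dble::R6/2, with no adjusted p under 0.05. Stat2 differed by 0.00 and 0.02 (both SE 0.06), and its dimmer probe set by -0.19 (adjusted p = 0.0618) and -0.08 (adjusted p = 0.487). Irf2 gave 0.10 (adjusted p = 0.0425) and -0.04 (adjusted p = 0.523). Irf1 gave 0.05 (adjusted p = 0.417) and 0.12 (adjusted p = 0.0314).

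Of the sensors, Ifih1, which encodes the receptor for long double-stranded RNA known as MDA5, was the one called. Its WT arrays ran from 6.49 through 6.56 to 6.81 and its R6/2 arrays from 6.81 through 7.11 to 7.25. Hdac4HET ran from 6.47 through 6.64 to 6.83 and Dble::R6/2 from 6.67 through 6.83 to 7.41. All 9 R6/2 arrays were above every WT array, and 5 of 10 Dble::R6/2 arrays were above every Hdac4HET array. Ifih1 rose by 0.47 (SE 0.07, adjusted p = 1.78e-06), and by 0.27 (SE 0.07, adjusted p = 0.0025) on the Hdac4HET background, under the fold threshold. Dhx58, which encodes the related sensor LGP2, Zbp1, a sensor of Z-form nucleic acid, and Eif2ak2, the kinase PKR that stops translation, gave changes between -0.09 and 0.11, with no adjusted p under 0.05. These values are of the brightest probe sets, and the dimmer ones disagree in part. A dimmer probe set of Eif2ak2 was higher in R6/2 by 0.38 (adjusted p = 0.00386). In Dble::R6/2 against Hdac4HET it gave 0.34 (adjusted p = 0.00911). The other gave 0.22 (adjusted p = 0.0788) and 0.11 (adjusted p = 0.421). Those of Dhx58 gave 0.22 (adjusted p = 0.00989) and -0.08 (adjusted p = 0.264) in Dble::R6/2. That of Zbp1 gave 0.19 there (adjusted p = 0.0308). In R6/2 those of Dhx58 and Zbp1 gave 0.03, -0.0008 and -0.003.

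Usp18 removes Isg15 from proteins and dampens signalling at the interferon receptor, and Trim25 is a ubiquitin and Isg15 ligase. Usp18 ran from 4.66 through 5.10 to 5.45 in WT and from 5.41 through 5.97 to 6.87 in R6/2. It ran from 4.67 through 4.90 to 5.62 in Hdac4HET and from 5.43 through 5.82 to 6.77 in Dble::R6/2. For Usp18, 8 of 9 R6/2 arrays were above every WT array, but only 5 of 10 Dble::R6/2 arrays were above every Hdac4HET array. The changes were 0.89 (SE 0.18, adjusted p = 7.43e-05) and 0.90 (SE 0.17, adjusted p = 4.81e-05). Trim25 ran from 6.85 through 7.14 to 7.31 in WT and from 7.28 through 7.62 to 7.85 in R6/2. It ran from 6.87 through 7.15 to 7.31 in Hdac4HET and from 7.36 through 7.54 to 7.88 in Dble::R6/2. All 10 Dble::R6/2 arrays and 8 of 9 R6/2 arrays were above every array of their controls. The changes were 0.48 (SE 0.07, adjusted p = 1.44e-06) and 0.44 (SE 0.07, adjusted p = 4.96e-06). A second probe set of Trim25 gave 0.59 and 0.51, and the third, much dimmer, gave 0.01 and 0.10.

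Among the membrane proteins and GTPases, Ifitm3, which restricts virus entry at the endosome, and Gbp3, a guanylate-binding protein, were called in both comparisons. Ifitm3 had a WT median of 9.34 (9.05 to 9.52) and an R6/2 median of 9.85 (9.44 to 10.46). Its Hdac4HET median was 9.47 (9.11 to 9.63) and its Dble::R6/2 median 9.87 (9.60 to 10.10). With 8 of 9 and 8 of 10 transgenic arrays above every control, the overlap came from the lowest transgenic arrays. Its changes were 0.58 (SE 0.10, adjusted p = 5.79e-06) and 0.40 (SE 0.09, adjusted p = 0.00068). The second was close to the fold threshold and fell under it, to between 0.36 and 0.38, without Hdac4HET replicate 8 or Dble::R6/2 replicate 4, 5 or 8, while without the arrays with raised bulb markers it was 0.63 (adjusted p = 0.00925). Gbp3 had a WT median of 7.69 (7.40 to 7.97) and an R6/2 median of 8.09 (7.61 to 8.62). Its Hdac4HET median was 7.37 (7.01 to 7.98) and its Dble::R6/2 median 7.90 (7.63 to 8.44). The genotypes overlapped widely, and the changes were 0.43 (SE 0.13, adjusted p = 0.00635) and 0.49 (SE 0.12, adjusted p = 0.00138). The first was 0.36 without R6/2 replicate 8 and was then not called, and the second was 0.85 (adjusted p = 0.00116) without the arrays with raised bulb markers. Gbp2 and Bst2, the tethering protein tetherin, had changes of 0.20 to 0.33, and a second probe set of Gbp2 was higher in Dble::R6/2 by 0.46 (adjusted p = 6.74e-05). Mx1 and Mx2, antiviral GTPases related to dynamin, gave changes between -0.03 and 0.09, with Mx1 among the lowest 25% of probe sets.

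Of the other effectors, Ifi27l2a, an interferon-induced small membrane protein, had the largest change of any member in R6/2 against WT. Ifi27l2a ran from 5.37 through 5.74 to 6.28 in WT and from 6.26 through 6.90 to 7.94 in R6/2. It ran from 5.57 through 5.81 to 6.46 in Hdac4HET and from 5.99 through 6.49 to 7.19 in Dble::R6/2. R6/2 and WT overlapped only at their edges, with 7 of 9 R6/2 arrays above every WT array, while 5 of 10 Dble::R6/2 arrays lay within the range of the Hdac4HET arrays. The changes were 1.19 (SE 0.18, adjusted p = 1.23e-06), or 2.29-fold, and 0.65 (SE 0.18, adjusted p = 0.00303), or 1.57-fold. Without the arrays with raised bulb markers the second was 0.87, with adjusted p = 0.0554. Ifi35, a partner of the interferon-induced protein Nmi, ran from 6.66 through 6.86 to 7.03 in WT and from 7.15 through 7.48 to 7.78 in R6/2. It ran from 6.74 through 6.97 to 7.13 in Hdac4HET and from 7.16 through 7.51 to 7.61 in Dble::R6/2. It was the one member called in both comparisons whose arrays were fully apart in both, with changes of 0.62 (SE 0.07, adjusted p = 7.92e-09) and 0.47 (SE 0.07, adjusted p = 1.10e-06). Its other probe sets rose by less, 0.34 and 0.30 in R6/2 and 0.28 each in Dble::R6/2, under the fold threshold. Xaf1, which binds the inhibitor of apoptosis XIAP, had a WT median of 7.84 (7.66 to 7.99) and an R6/2 median of 8.36 (8.04 to 8.70). Its Hdac4HET median was 7.76 (7.55 to 7.99) and its Dble::R6/2 median 8.25 (7.99 to 8.54). All 9 R6/2 arrays and 9 of 10 Dble::R6/2 arrays were above every array of their controls, and the changes were 0.53 (SE 0.08, adjusted p = 7.72e-07) and 0.44 (SE 0.08, adjusted p = 1.02e-05). A second, dim probe set of Xaf1 gave 0.00 and 0.07, and without the arrays with raised bulb markers the change in Dble::R6/2 was 0.34 (adjusted p = 0.0599) and was not called.

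Rsad2 (viperin, which makes a chain-terminating nucleotide), Parp14 (an ADP-ribosyltransferase) and Sp100 (a nuclear body protein) had changes between 0.23 and 0.34 in the 2 transgene comparisons, each with an adjusted p under 0.05 and under the fold threshold. The dimmer probe sets of these genes did not all rise in R6/2. For Rsad2, 1 was higher by 0.38 (adjusted p = 0.00821) and the other gave -0.01 (adjusted p = 0.936). That of Parp14 gave -0.07 (adjusted p = 0.527) and that of Sp100 gave 0.05 (adjusted p = 0.544). In Dble::R6/2 against Hdac4HET the same probe sets gave 0.33, 0.22, 0.02 and 0.15. The chemokine Cxcl10 gave 0.12 (SE 0.07, adjusted p = 0.175) and 0.14 (SE 0.07, adjusted p = 0.1), and the exonuclease Isg20 gave -0.04 and 0.03 (both SE 0.09).

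The second question was whether a single Hdac4 copy changes these genes, without or with the transgene. In Hdac4HET against WT 0 members were higher and 0 were lower in the limma fit, where 0.346% and 0.022% of all genes were called, and the test named in the study's methods also called 0 and 0. At an unadjusted p under 0.05 there were 3 of 35 higher (Irf2, Irf3 and Ifit2; 10.6% of all genes) and 3 lower (Irf1, Oas3 and Eif2ak2; 8.53% of all genes), and the median change was -0.01. Ifit1 gave 0.05 (95% interval -0.29 to 0.39), Usp18 -0.13 (-0.48 to 0.23), Ifi27l2a 0.12 (-0.25 to 0.49) and Gbp3 -0.19 (-0.44 to 0.07). These 4 intervals, alone among those of the 14 members that rose in R6/2, reach past the fold threshold, so a change of that size is within the error for these genes. Raised bulb markers were found on 7 of 9 Hdac4HET arrays and 0 WT arrays, and 12 of 16 bulb markers were called higher. Genotype and bulb content cannot be told apart in this comparison. Without those arrays 2 Hdac4HET arrays are left and again 0 members were called. The median and the intervals are for all arrays.

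In Dble::R6/2 against R6/2 limma and the methods' test again called 0 members higher and 0 lower, beside 0.022% and 0.066% of all genes. At an unadjusted p under 0.05 there were 0 of 35 higher (11.4% of all genes) and 4 lower (4.77% of all genes), which were Ifi27l2a, Oasl2, Ifih1 and Irf9. The median change was -0.05, beside 0.02 over all genes. The reference here is the same R6/2 arrays on which the 14 members were called as higher, so the values of those members are given as a description. Ifi27l2a was lower by -0.42 (95% interval -0.78 to -0.06, adjusted p = 0.204) and Oasl2 by -0.32 (-0.62 to -0.01, adjusted p = 0.272). Ifih1 gave -0.18 (-0.33 to -0.04, adjusted p = 0.167) and Ifit1 -0.08 (-0.41 to 0.25, adjusted p = 0.852). The R6/2 and Dble::R6/2 arrays of these genes overlapped, and none of the differences passed the test. Over the 14 members the intervals reached from -0.78 to 0.25.

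The interaction, the change with the transgene in Dble::R6/2 against Hdac4HET minus that in R6/2 against WT, was called for 0 members higher and 0 lower by limma, beside 0.066% and 0.121% of all genes. At an unadjusted p under 0.05 it was higher for 2 of 35 (Oas3 and Eif2ak2; 11.3% of all genes) and lower for 3 (Irf2, Irf9 and Ifi27l2a; 7.91% of all genes). The interaction subtracts the change in R6/2 against WT by which the 14 members were called.

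Many members also moved with Ifit1 from array to array once the genotype means were removed, though not equally in each genotype. After the mean of each genotype was subtracted, Ifit1 was set against each of the other 34 members over the 37 arrays, with p-values from 100000 permutations of arrays within genotypes and adjusted over the 34. Of these, 20 were positively correlated with Ifit1 at an adjusted p under 0.05 and 0 were negatively correlated. No share of all genes is given for this test, so how far the count exceeds such a share cannot be said. Ifi27l2a had the highest value (r = 0.89, rho = 0.85, permutation p = 1e-05, adjusted p = 3.78e-05), where 1e-05 is the smallest p that these permutations can give. Oasl2 had r = 0.87 and rho = 0.85, Ifit3 r = 0.86 and rho = 0.86, and Usp18 r = 0.83 and rho = 0.81, each with the same permutation p. Without the 2 arrays farthest from the Ifit1 median, R6/2 replicates 6 and 8 at 7.61 and 7.48, these were 0.84, 0.81, 0.80 and 0.78. That leaves 16 members at an adjusted p under 0.05, 15 of which are among the 20, and Cxcl10 is added (r = 0.43, adjusted p = 0.028). Of the 5 that no longer passed, Irf9 (r = 0.41, adjusted p = 0.0547) and Sp100 (r = 0.41, adjusted p = 0.0539) were close to the threshold, at an r like that of Gbp2 (0.41, adjusted p = 0.0431), which passed. Rsad2 (r = 0.31, adjusted p = 0.129), Oas1a (r = 0.27, adjusted p = 0.251) and Dhx58 (r = 0.25, adjusted p = 0.25) were farther from it, and these 3 relations rest more on the 2 arrays. Without the arrays that had raised bulb markers or did not match their labelled sex (26 arrays left) there were 18, all among the 20.

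Within single genotypes the correlation of Ifi27l2a with Ifit1 was 0.98 in R6/2, 0.94 in Dble::R6/2, 0.87 in Hdac4HET and 0.48 in WT. For Ifitm3 it was 0.93 in R6/2, 0.90 in Dble::R6/2, 0.67 in WT and 0.05 in Hdac4HET. Parp14, Oas1a, Rsad2, Dhx58 and Sp100, all among the 20, had r between -0.19 and 0.07 in Hdac4HET and between 0.49 and 0.87 in R6/2. Their r lay between 0.11 and 0.74 in WT and between 0.40 and 0.87 in Dble::R6/2. Whether r differs between genotypes was not tested. Over all arrays, Stat2, Zbp1, Mx1, Oas3 and Eif2ak2, which were not called as higher in R6/2, had r between -0.02 and 0.10. The 13 other members that were higher in R6/2 were all among the 20, and the rest of the 20 were Bst2, Parp14, Sp100, Oas1a, Gbp2, Dhx58 and Rsad2.

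**Figure D4:**
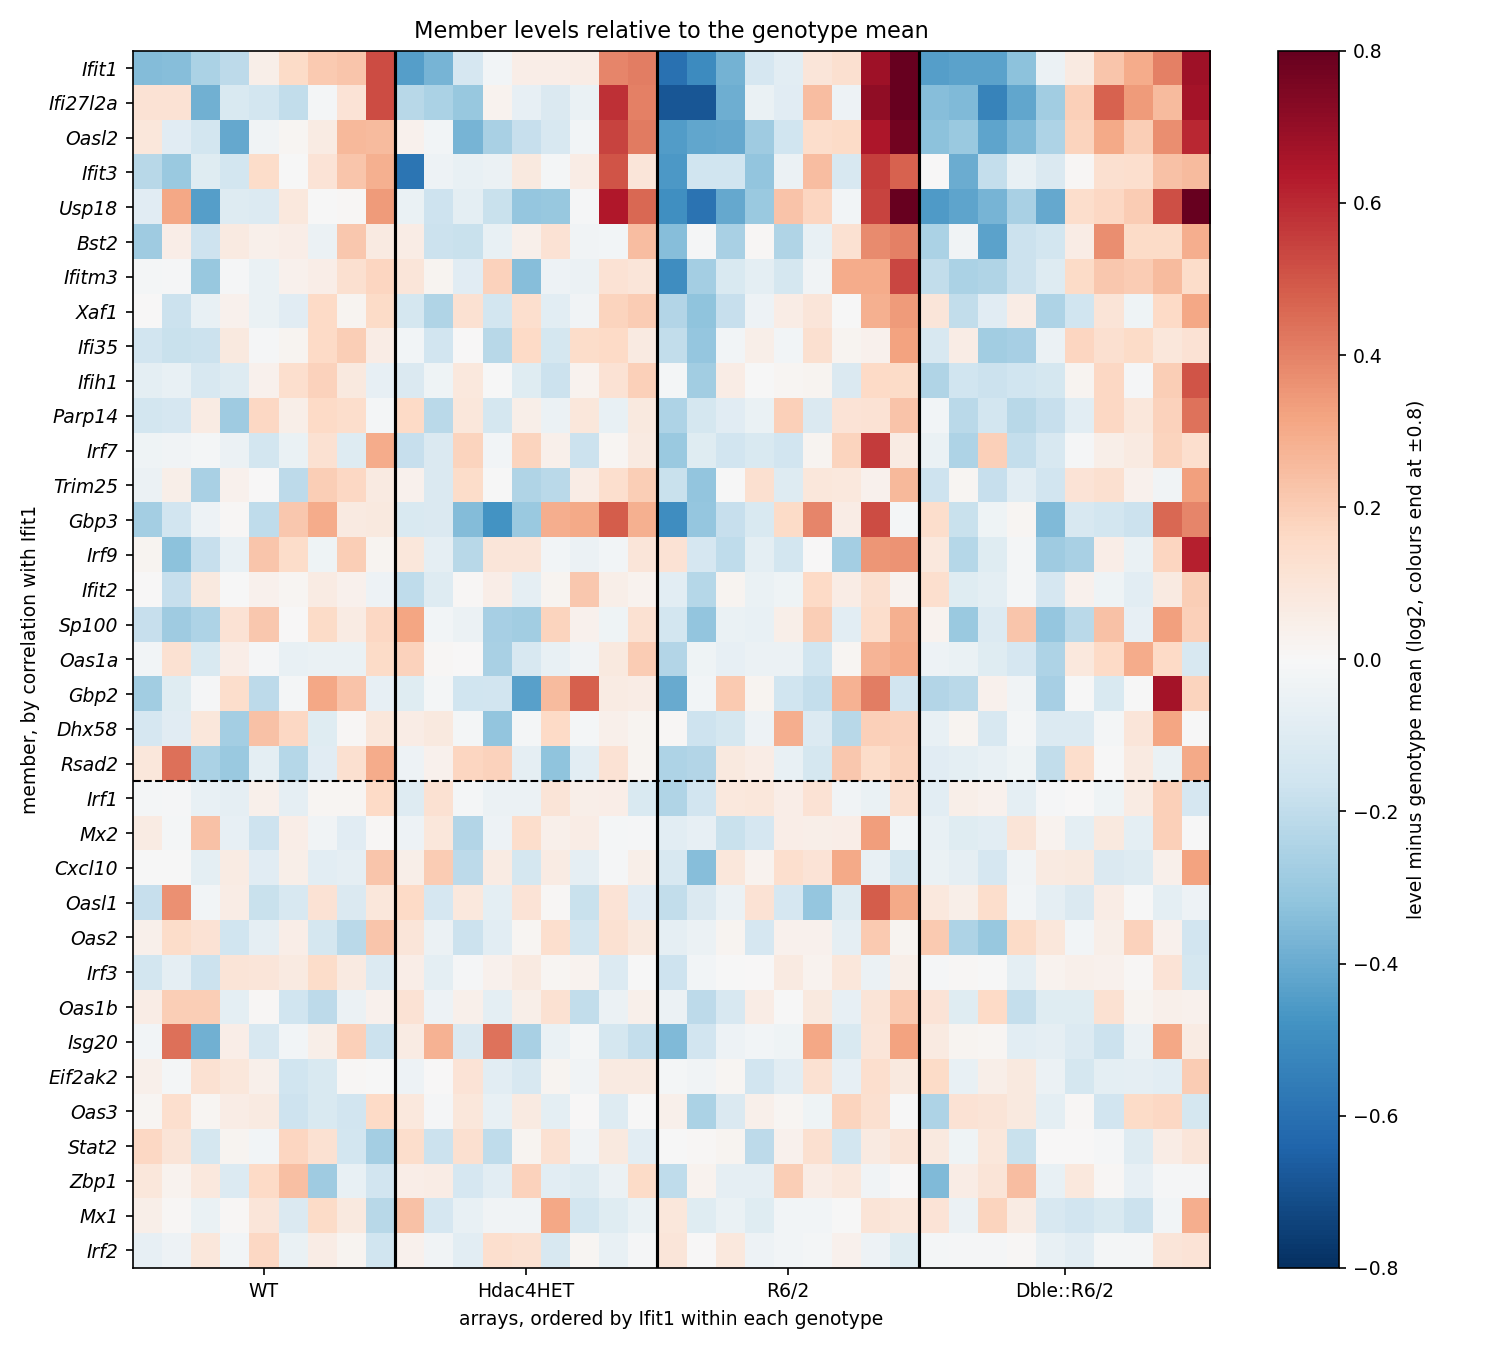
Level of each member on each array minus its genotype mean (log2, colour), with arrays in columns ordered by Ifit1 within genotype and members in rows ordered by their correlation with Ifit1. The 20 members between Ifit1 and the dashed line were correlated at an adjusted p under 0.05; the red cells gather at the right of each genotype block in the upper rows and most widely in R6/2 and Dble::R6/2.

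The genes most like Ifit1 among all 18192 others, ranked by the same genotype-centred r over 37 arrays, were Ifi27l2a, Rtp4, Oasl2, Ifit3, Lgals3bp, Usp18, Ifi27, Bst2, Ifitm3 and Xaf1. Members of the list made up 7 of these 10, 10 of the first 20 and 14 of the first 100. Of the others, Rtp4, a receptor transporter protein, had r = 0.87 and rose by 0.76 (adjusted p = 6.64e-05) and 0.70 (adjusted p = 0.000132). Ifi27 had r = 0.78 and differed between genotypes by only 0.07 (adjusted p = 0.586) and 0.10 (adjusted p = 0.413).

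Further genes of the pathway were taken from lists chosen by function. Of 18 ligand genes, the interferons and Il6, 10 were measured, and 0 were called higher or lower in either transgene comparison. Their mean levels lay between 3.15 and 5.10, with 7 of the 10 among the lowest 25% of probe sets. At any size 3 were lower in R6/2 against WT (Ifna2, Ifna4 and Ifnab, by -0.15 to -0.23), beside 18.4% of all genes. In Dble::R6/2 against Hdac4HET 0 ligand genes were lower, beside 14.1% of all genes. Ifnb1 gave -0.11 (SE 0.08, adjusted p = 0.296) and 0.16 (SE 0.08, adjusted p = 0.124), and Ifng -0.06 and 0.03 (both SE 0.06). Of all genes, 3.75% were called higher and 3.3% lower in R6/2 against WT, and 2.6% and 4.08% in Dble::R6/2 against Hdac4HET. Near those shares, 1 of 23 measured receptor and signalling genes was higher and 1 lower in each comparison. These were Stat4, a signal transducer of interleukin-12 and interferon (0.38, adjusted p = 0.000137, and 0.46, adjusted p = 6.65e-06), and Socs3, an inhibitor of cytokine signalling (-0.40, adjusted p = 4.32e-05, and -0.57, adjusted p = 6.83e-08). The receptor subunit Ifnar2 rose by less than the threshold, by 0.29 (SE 0.04, adjusted p = 9.93e-08) and 0.36 (SE 0.04, adjusted p = 5.82e-10), and Ifnar1 gave -0.01 and -0.09 (both SE 0.04).

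Of 21 measured genes of nucleic acid sensing, 2 were higher in R6/2: Zc3hav1, a zinc finger protein that targets viral RNA (0.54, adjusted p = 6.57e-07), and Samhd1, which breaks down dNTPs (0.53, adjusted p = 1.42e-10). In Dble::R6/2 against Hdac4HET 0 were called. For the counts of this paragraph, the shares of all genes were 3.75% higher and 3.3% lower in R6/2 against WT. They were 2.6% and 4.08% in Dble::R6/2 against Hdac4HET. Of 61 further interferon-induced genes measured, 18 were higher and 1 lower in R6/2 against WT, with a median of 0.16, and 9 were higher and 0 lower in Dble::R6/2 against Hdac4HET, with a median of 0.14. The largest changes in R6/2 were those of Trim34a (0.87, SE 0.35, adjusted p = 0.0487), Parp12 (0.78, SE 0.06, adjusted p = 2.31e-13), Rtp4 (0.76, SE 0.15) and Samd9l (0.71, SE 0.08, adjusted p = 1.12e-09). In Dble::R6/2 they were those of Rtp4 (0.70), Parp12 (0.68, SE 0.06, adjusted p = 3.44e-12), Samd9l (0.63, SE 0.07, adjusted p = 9.22e-09) and Dtx3l (0.60, SE 0.07, adjusted p = 1.29e-09). Trim34a was not among the 9 genes called in that comparison. Herc6, an Isg15 ligase of the mouse, was the gene that was lower in R6/2, by -0.39 (SE 0.06, adjusted p = 4.30e-06). Of 16 measured antigen presentation genes 1 was higher in R6/2, the proteasome activator Psme1 (0.44, adjusted p = 1.40e-08), and 3 in Dble::R6/2, which were H2-Aa (0.74, SE 0.21, adjusted p = 0.00376), Psme1 (0.56, adjusted p = 3.40e-11) and Erap1 (0.39, adjusted p = 0.000296).

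Markers of the cells that could carry the response were measured beside it. In bulk tissue, a different number of cells of a type and a different amount of RNA per cell cannot be told apart. Of 18 microglia markers 0 were higher and 1, Cd68, was lower in R6/2 against WT, and their mean level ran from 8.50 to 8.72 in WT and from 8.33 to 8.74 in R6/2. At any size 1 was higher and 6 were lower, with a median change of -0.12. Over all genes, 3.75% were called higher and 3.3% lower in this comparison, and 28.1% and 18.4% at any size. Of 15 astrocyte markers 1, Vim, was called higher and 0 lower, but at any size 2 were higher and 9 lower, the median change was -0.21, and their mean level was fully apart and lower in R6/2 (9.75 to 9.86 in WT and 9.56 to 9.71 in R6/2). Of 13 oligodendrocyte markers 2 were lower, Mal and Mobp (10.39 to 10.75 and 10.10 to 10.56), with 0 higher and 7 lower at any size. Of 15 endothelial and pericyte markers 0 were called either way (8.22 to 8.44 and 8.34 to 8.48), with 6 higher and 1 lower at any size. Of 15 blood and leukocyte markers 1, Lyz2, was higher and 0 lower (5.25 to 5.61 and 5.34 to 5.54), with 3 higher and 3 lower at any size. Of 14 neuron and cortex markers 4 were lower, Fezf2, Nrgn, Camk2a and Cux2, and 11 were lower at any size. The mean of this list was fully apart, at 11.32 to 11.47 in WT and 11.02 to 11.22 in R6/2.

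In Dble::R6/2 against Hdac4HET 0 of the microglia markers were called either way (8.49 to 8.72 in Hdac4HET and 8.41 to 8.65 in Dble::R6/2), with 0 higher and 6 lower at any size, and 13 of 16 olfactory bulb markers were lower (6.46 to 8.60 and 6.29 to 7.23). Over all genes, 2.6% were called higher and 4.08% lower in this comparison, and 28.4% and 14.1% at any size. Of the astrocyte markers Lcn2 and Slc1a2 were lower, 11 of 15 were lower at any size, and their mean was again fully apart (9.73 to 10.00 and 9.57 to 9.70). Of 14 neuron and cortex markers 5 were lower, Cux2, Fezf2, Camk2a, Bcl11b and the inhibitory-neuron gene Gad1, and 12 were lower at any size. The mean of this list was fully apart (11.37 to 11.43 and 11.04 to 11.20). Lower too were 3 of 13 oligodendrocyte markers, Mal, Ugt8a and Mobp, with 0 higher and 5 lower at any size. So were 3 of 15 blood and leukocyte markers, S100a9, S100a8 and Alas2, with 1 higher and 4 lower at any size. None of the endothelial and pericyte markers was called, with 2 higher and 0 lower at any size.

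Over the arrays, the genotype-centred mean of the endothelial and pericyte markers had the highest correlation with Ifit1 of the 8 marker lists (r = 0.29, permutation p = 0.0793, adjusted p = 0.634; rho = 0.36, permutation p = 0.0342, adjusted p = 0.274), and r was 0.32 without the 2 farthest arrays. The microglia markers had r = 0.03 (permutation p = 0.899) and rho = 0.13, and r was 0.24 (permutation p = 0.17) without the 2 farthest arrays. The part of any of these cell types in the differences between genotypes was not tested.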

How the data were processed

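The deposited values were log2 expression levels of 45037 probe sets on 37 Affymetrix arrays that cover the mouse genome. The authors prepared labelled cRNA with a 3' IVT kit and checked the arrays for quality; the sources used here do not give the summarisation or the normalisation. The study's methods left out some arrays on a quality measure without naming them, and all 37 were used. Levels are relative, and a 3'-biased array compresses differences near its background.

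Genotype means were fitted with limma 3.58.1 in R 4.3.3 (lmFit, eBayes with a trend) over all arrays and probe sets, with Benjamini-Hochberg adjustment over all 45037. A call needed an adjusted p under 0.05 and a change above 1.3-fold. The platform annotation gave 1 symbol for 34945 probe sets, several for 932 and none for 9160, and only the first were named. The number of arrays limits the precision, and since the labels only number the replicates of a genotype, p-values measure the spread between these samples. The fit was tested on simulated data.

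The members and lists were chosen with earlier results of these data known. Full values are given for each member called in any comparison, other members are given by ranges, and pathway lists by counts with up to 4 called genes of largest change. Alternatives were the methods' two-tailed t-test, other normalisation, weights, filters, choices of probe set, sex and replicate number as terms, and the arrays left out singly or by quality. Array sets for co-variation without doubtful arrays were chosen after seeing the data.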

Additional observations from a re-analysis of the deposited data

Results flagged for a closer look

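In 56 checks of the called members (14 members in 4 genotypes) 3 arrays stood apart from the other arrays of their genotype by Dixon's gap test, where chance alone gives about 1 in 20. Irf9 was highest on Dble::R6/2 replicate 6, at 7.94, with the next array at 7.49. Ifit2 was lowest on WT replicate 3, at 7.19, with the next at 7.33, and Ifitm3 was lowest on WT replicate 4, at 9.05, with the next at 9.30. No cause was tested. None of the 25 calls in the transgene comparisons was lost when any of these arrays was left out.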

How the results depend on the processing

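Across the alternatives no called change turned its direction. Without the fold threshold 22 members were higher and 1 lower in R6/2 against WT, and 20 were higher in Dble::R6/2 against Hdac4HET. With the second brightest probe set, which only 12 members have, 1 and 2 were higher. With each array left out in turn the counts were 12 to 15 and 10 to 12, and 0 members were called lower. The remaining comparisons gave 0 calls under each alternative that could be fitted; the t-test and the fit to only the genotypes compared give no interaction value.

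With the mean over all probe sets of a gene, Trim25 and Xaf1 were lost in both transgene comparisons and Ifi35 in Dble::R6/2 against Hdac4HET. Without probe sets ending in _x_at or _s_at, Ifi35 was lost in both. Without the arrays with raised bulb markers, Irf7, Ifit3, Ifi27l2a and Xaf1 were lost in Dble::R6/2 against Hdac4HET, which leaves 2 Hdac4HET arrays, and Ifit2, Gbp2 and Sp100 were gained. The cause was not tested. With probe sets above the median level only, Oasl2 and Usp18 are not measured.

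Replicate numbers do not pair the samples: over 54 same-numbered pairs the deviations correlated by 0.01 on average (-0.23 to 0.22), and 4 of 37 arrays matched best with their own number. With the replicate block the counts were 14 and 12 higher, and none of the 25 called changes was lost. Dim probe sets limit what can be seen of Oas3 and Mx1.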
